A study of Mus musculus with 12 samples.

Results

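The constitutive proteasome subunits are the 39 genes Psma1 to Psma7, Psmb1 to Psmb7, Psmc1 to Psmc6, Psmd1 to Psmd14, Psme1 to Psme4 and Pomp, found in the count table by the Ensembl gene identifier that belongs to each symbol. All 39 were found among 55487 genes, and all 39 were among the 11314 protein-coding genes with enough counts to be tested. The MSCs were primary mesenchymal stromal cells from the bone marrow of wild-type C57BL/6 mice, cultured to 80% confluency before treatment. Control MSCs (labelled Negative) were compared with MSCs given 50 μM A1, a variant of the endosome-disrupting molecule Accum, for 6 h, and with MSCs given 50 μM A1 and 1 mg/ml ovalbumin (OVA, the main protein of chicken egg white) for the same time. Each group had 4 samples, and OVA was present only together with A1, so an effect of OVA without A1 was not analysed here.

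The proteasome degrades proteins that carry ubiquitin. Its barrel-shaped 20S core has outer rings of alpha subunits, which form a gate, and inner rings of beta subunits, of which Psmb5, Psmb6 and Psmb7 carry the proteolytic sites. The 19S regulatory particle sits on the core: its base holds a ring of ATPases that unfold the substrate, and its lid removes the ubiquitin chain. Other activators can take the place of the 19S particle, and in antigen-presenting cells the peptides that the proteasome releases supply MHC class I molecules.

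The samples held 13702348 to 16881995 counts each, with 13702348 to 14347870 in the A1 samples and 15644991 to 16881995 in the control samples, and the 39 genes took up 0.575% to 0.622% of them. Among the genes that mark MSCs, Cd44, Ly6a, Eng, Pdgfra and Pdgfrb were present, whereas Nt5e (CD73) had at most 14 counts and Thy1 (CD90) at most 17 counts in any sample. The 6 haematopoietic and macrophage markers summed to between 9.22 and 14.5 CPM (the count of a gene relative to the scaled library total), most of it Cd14, and lay between 9.22 and 10.0 CPM in the control, 11.98 and 14.5 CPM in the A1 and 10.5 and 12.8 CPM in the A1 + OVA samples, with Ptprc, Itgam and Adgre1 at no more than 4 counts in any sample. The 7 MSC surface markers summed to 821 to 881 CPM in the control, 986 to 1017 CPM in the A1 and 894 to 909 CPM in the A1 + OVA samples, and the 2 adipocyte and osteoblast markers, Adipoq and Bglap, to 1.00 to 2.78, 0.581 to 0.763 and 0.198 to 0.949 CPM, so that both treated groups lay apart from control for these lists. Within the MSC list the genes moved in different directions. With A1, Cd44 rose (log2 fold change 1.39 ± SE 0.040), while Pdgfra (-0.99 ± 0.053) and Ly6a (-0.59 ± 0.066) fell, each with all samples apart from control. Eng, Nt5e and Pdgfrb had adjusted p of 0.662, 0.0811 and 0.866 with A1 (edgeR). With A1 and OVA, Cd44 rose (1.20), Pdgfra (-1.16), Ly6a (-0.50) and Pdgfrb (-0.14) fell, and Eng and Nt5e did not pass the test. The 3 endothelial markers summed to no more than 0.534 CPM in any sample. The part of these markers in the results below was not tested. Nothing in the labels says that the samples of a group came from separate cultures or animals, so that p-values measure the spread between these samples only. RNA was taken from whole cultures, in which fewer cells of a type and less RNA per cell cannot be told apart.

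All 39 genes were expressed in every sample, at levels that differed between genes. To compare genes, CPM was divided by the length of the annotated exons. On this scale the control MSCs expressed a median of 46.4 CPM per kb. Psma6, an alpha ring subunit, was highest at 125 ± 7.16 CPM per kb (mean ± SD, n = 4), and Psmd9, a chaperone of 19S assembly, was lowest at 4.37 ± 0.475 CPM per kb, 28.7 times less. The 6 ATPases had a median of 90.6 CPM per kb and the lid a median of 48.7 CPM per kb, with Psmd7 at 99.7 ± 3.52 and Psmd11 at 18.1 ± 0.282 CPM per kb. The catalytic beta subunits followed the order Psmb7 at 44.7 ± 2.35, Psmb6 at 42.2 ± 3.59 and Psmb5 at 29.5 ± 3.47 CPM per kb, in which Psmb7 and Psmb6 lay within their spread of each other. The 39 genes lie on 15 chromosomes, with 8 of them on chromosome 11. Exon lengths were summed over all annotated transcripts, and the transcripts that the cells used were not measured.

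**Figure D1:**
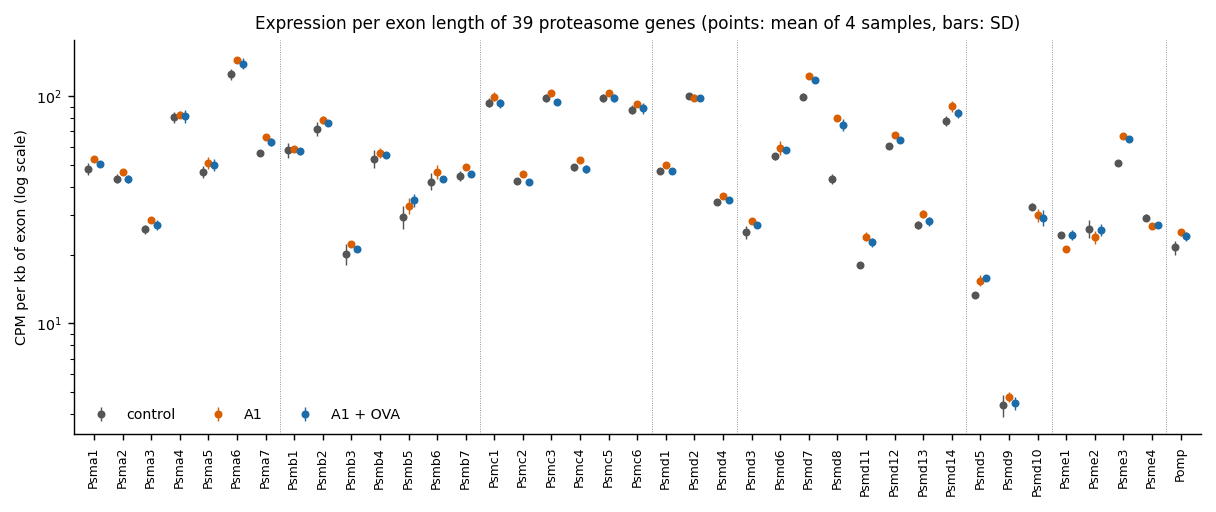
CPM per kb of annotated exon (log scale) for each of the 39 proteasome genes, grouped by role with dotted lines between roles, in control (grey), A1 (orange) and A1 + OVA (blue) MSCs; points are means of 4 samples and bars the SD. The genes span from Psmd9 at 4.37 to Psma6 at 125 CPM per kb in control, and for most genes the 3 groups lie close together, with Psmd8 the widest apart.

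With A1, 25 of the 39 genes rose and 2 fell (edgeR's quasi-likelihood test, Benjamini-Hochberg adjusted p under 0.05), so that 27 were called, where 62.7% of all tested genes were called, 31.7% higher and 31.1% lower. The increases were small. The median log2 fold change of the 39 genes was 0.13 (all tested genes, -0.0018), and 35 of 39 genes, or 89.7%, lay within 0.25 of 0, against 53.1% of all tested genes. Log2 fold changes of single genes are given below ± SE. Psmd8 was the single gene past a log2 fold change of 0.5, in a background of 21%. The 4 A1 samples all lay above the 4 control samples for 17 genes (28% of all tested genes) and all below them for 1 gene, Psme1 (26.4%). With A1 and OVA, 13 genes were called (background 57.6%), of which 11 rose (29.7%) and 2 fell (27.9%), Psmd8 again was the 1 gene past 0.5 (17.7%), the median log2 fold change was 0.051 (all tested genes, 0.0035), and the samples lay fully above control for 6 genes (25.4%) and fully below it for none (24%). Between the treatments, 4 genes were called (12.9%), of which 1 was higher with OVA than without it (6.05%) and 3 were lower (6.81%), and none passed 0.5 (1.2%), the largest difference being 0.21 for Psme1, with a median of -0.065 (all tested genes, 0.0057). The samples with OVA lay fully below those with A1 alone for 9 genes (9.58%) and fully above them for 1 (8.56%). Both comparisons with control share the same 4 control samples. Without A1 sample 1, 16 genes were called higher with A1, and the count of genes lower with A1 and OVA than in control became 1 without control sample 2, A1 + OVA sample 3 or A1 + OVA sample 4. The count lower with OVA than with A1 alone became 1 without A1 sample 1, 3 or 4 or A1 + OVA sample 2, and 0 without A1 + OVA sample 3. How many genes were called higher with A1 depended on the scaling: with library totals in place of TMM factors, 10 genes were called higher and 5 lower, and with upper-quartile factors 14 and 3. The 10 genes were Psma6, Psma7, Psmd5, Psmd7, Psmd8, Psmd11, Psmd12, Psmd14, Psme3 and Pomp. The calls among all 11314 tested genes moved as well. With A1, 3581 were higher and 3517 lower with TMM factors, 2685 and 4491 with library totals, and 3225 and 3847 with upper-quartile factors. The median of the 39 genes with A1 lay 0.127 above that of all tested genes under each of these scalings. With A1 and OVA, library totals gave 6 genes higher and 4 lower (all tested genes, 2618 and 4097), and the median of the 39 genes changed sign to -0.015, while the median of all tested genes became -0.062. Without control sample 1 the median with A1 and OVA was 0.088, without control sample 4 it was 0.033 and without A1 + OVA sample 1 it was 0.033.

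**Figure D2:**
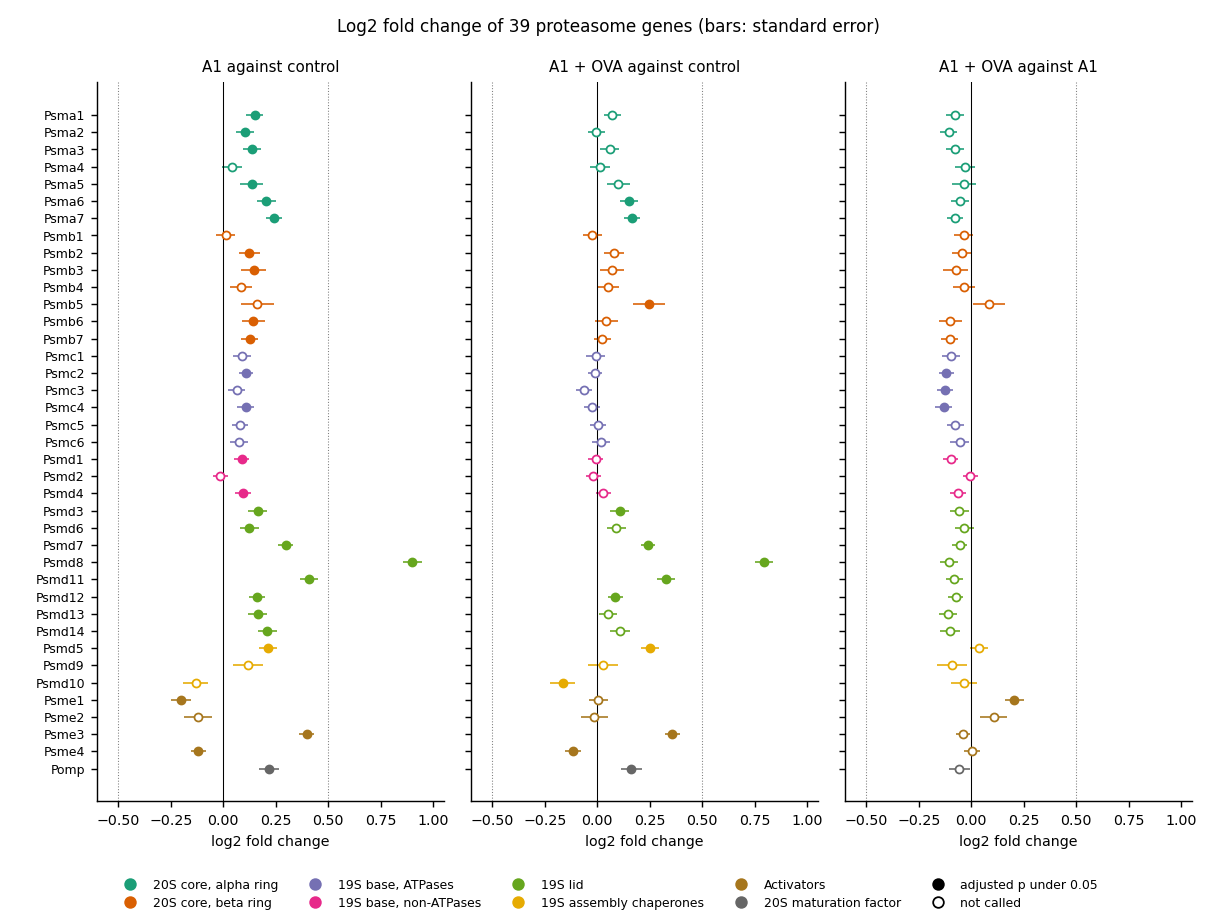
Log2 fold change (points) with its standard error (bars) of each of the 39 proteasome genes in the 3 comparisons, coloured by role; filled points have an adjusted p under 0.05 and dotted lines mark 0.5 and -0.5. Psmd8 stands at 0.90 with A1 and 0.79 with A1 and OVA, the lid genes lie to the right of 0 in both comparisons with control, and Psme1 is the lowest gene with A1 at -0.20.

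The outer rings of the core, built from Psma1 to Psma7, rose with A1 in 6 of 7 genes (median log2 fold change 0.14). Psma7 had the largest increase among them, and was found at 178, 169.9, 173 and 168 CPM in the control samples, 202, 199.9, 210.3 and 204 CPM in the A1 samples and 201, 195, 182 and 197 CPM in the A1 + OVA samples. All treated samples lay above all control samples, and the log2 fold change was 0.24 ± 0.038, adjusted p = 1.1e-05 with A1 and 0.17 ± 0.038, adjusted p = 0.000742 with A1 and OVA (edgeR). Psma4, the alpha gene with the smallest log2 fold change with A1, was at 195, 204, 185 and 182 CPM in the control samples, 192, 194, 206 and 194 CPM in the A1 samples and 205, 200.0, 175 and 192 CPM in the A1 + OVA samples. Its groups overlapped, and its log2 fold change with A1 was 0.040 ± 0.048, adjusted p = 0.486 (edgeR). Psma6 was at 167, 152, 153 and 147 CPM in the control samples, 178, 177, 179 and 179 CPM in the A1 samples and 183, 172, 159 and 174 CPM in the A1 + OVA samples, and its A1 samples stood above each control sample, with 0.21 ± 0.044, adjusted p = 0.000406 with A1 and 0.15 ± 0.044, adjusted p = 0.00572 with A1 and OVA (edgeR). Psma2 had the lowest log2 fold change of the alpha genes with A1 and OVA, -0.0037 ± 0.041, adjusted p = 0.946 against control (edgeR), at 169, 160.5, 154 and 154 CPM in the control samples, 171, 166, 178 and 170.1 CPM in the A1 samples and 164, 164, 150.0 and 159 CPM in the A1 + OVA samples. Its A1 + OVA samples lay below its A1 samples, and that difference of -0.11 ± 0.041, adjusted p = 0.0906 did not pass the test (edgeR). The annotated span of Psma2 overlaps that of the gene AW209491 on the same strand. Whether the 2 genes share exons or reads was not examined, which leaves the count of Psma2 uncertain. Psma1, Psma3 and Psma5 had log2 fold changes of 0.15, 0.14 and 0.13 with A1, all called, and of 0.072, 0.059 and 0.10 with A1 and OVA, none called. The calls of Psma2 and Psma5 with A1 were each lost without any one of control samples 3 and 4 and A1 samples 1, 3 and 4, with adjusted p up to 0.131 and 0.194 (edgeR).

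Within the beta rings, Psmb2, Psmb3, Psmb6 and Psmb7 rose with A1, and the median log2 fold change of the 7 genes was 0.13. Of the catalytic subunits, Psmb6 and Psmb7 were called with A1, and Psmb5 with A1 and OVA. With library totals each of these calls was lost (adjusted p = 0.358, 0.36 and 0.0555, edgeR). Psmb5, which carries the chymotrypsin-like site, was at 30.8, 24.5, 26.8 and 23.9 CPM in the control samples, 32.3, 28.1, 31.0 and 27.3 CPM in the A1 samples and 31.7, 28.5, 33.3 and 32.2 CPM in the A1 + OVA samples. Its control samples reached into the range of the treated samples, and its log2 fold change was 0.16 ± 0.078, adjusted p = 0.0759 with A1 and 0.24 ± 0.076, adjusted p = 0.00897 with A1 and OVA (edgeR), while the difference between the treatments, 0.083 ± 0.077, adjusted p = 0.521, did not pass the test. Psmb6, with the caspase-like site, was at 88.2, 72.4, 79.0 and 76.0 CPM in the control samples, 95.9, 81.4, 85.1 and 85.9 CPM in the A1 samples and 83.8, 80.7, 80.8 and 79.9 CPM in the A1 + OVA samples. These groups overlapped too, with 0.14 ± 0.056, adjusted p = 0.0302 with A1 and 0.043 ± 0.055, adjusted p = 0.531 with A1 and OVA (edgeR). Psmb7, with the trypsin-like site, was at 164, 146, 152 and 149.6 CPM in the control samples, 167, 165, 174 and 162 CPM in the A1 samples and 152, 152, 157 and 159.9 CPM in the A1 + OVA samples. Each A1 + OVA sample lay below each A1 sample, and the values were 0.13 ± 0.041, adjusted p = 0.0104 for A1 against control and -0.10 ± 0.041, adjusted p = 0.104 for A1 + OVA against A1 (edgeR). Psmb1, a non-catalytic subunit, had the smallest log2 fold change of the rings with A1, at 296, 264, 252 and 257 CPM in the control samples, 268, 265, 279 and 264 CPM in the A1 samples and 272, 263, 249 and 267 CPM in the A1 + OVA samples. No group of Psmb1 stood apart, with 0.012 ± 0.046, adjusted p = 0.841 with A1 (edgeR). Psmb2, Psmb3 and Psmb4 had 0.13, 0.14 and 0.085 with A1, of which Psmb4 was not called. Several beta ring calls rested on single samples: Psmb2, Psmb3 and Psmb6 each lost theirs without any one of 5 samples, with adjusted p up to 0.117, 0.157 and 0.175, and Psmb7 lost its call without A1 sample 3 (0.0544, edgeR). The 5 samples were control samples 2 and 3 and A1 samples 1, 2 and 3 for Psmb2, control samples 2 and 4 and A1 samples 1, 3 and 4 for Psmb3, and control samples 2, 3 and 4 and A1 samples 1 and 4 for Psmb6.

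The ATPases Psmc1 to Psmc6, which form the unfolding ring of the 19S base, stood close to control, with log2 fold changes between 0.063 and 0.11 with A1 and between -0.063 and 0.018 with A1 and OVA. Psmc2 and Psmc4 rose with A1. With TMM factors none was called with A1 and OVA against control, by edgeR at an adjusted or an unadjusted p under 0.05, nor by DESeq2. With library totals Psmc3 was called lower than control with A1 and OVA (log2 fold change -0.13, adjusted p = 0.0074, edgeR), in 1 of the 21 alternatives. Psmc2, Psmc3 and Psmc4 were lower with A1 and OVA than with A1 alone. Psmc2 was at 219, 212, 213 and 208 CPM in the control samples, 227, 224, 233 and 234 CPM in the A1 samples and 209, 211, 206 and 218 CPM in the A1 + OVA samples. Every A1 sample lay above every sample of both other groups, with 0.11 ± 0.035, adjusted p = 0.00997 for A1 against control and -0.12 ± 0.035, adjusted p = 0.027 for A1 + OVA against A1 (edgeR). Psmc4 was at 108, 101, 109 and 104 CPM in the control samples, 115, 110.4, 112 and 116 CPM in the A1 samples and 108, 103, 98.7 and 105 CPM in the A1 + OVA samples. Here too the A1 samples stood above both other groups, with 0.11 ± 0.039, adjusted p = 0.0226 and -0.13 ± 0.040, adjusted p = 0.0314 (edgeR). Psmc3 was at 272, 255, 255 and 246 CPM in the control samples, 277, 262, 272 and 262 CPM in the A1 samples and 245, 255, 247 and 236 CPM in the A1 + OVA samples. Its A1 samples overlapped control and lay above all A1 + OVA samples, with 0.063 ± 0.038, adjusted p = 0.159 and -0.13 ± 0.039, adjusted p = 0.0342 (edgeR). Psmc6, the ATPase with the smallest difference between the treatments, was at 309.6, 324, 293 and 297 CPM in the control samples, 316, 319, 335 and 317 CPM in the A1 samples and 332, 315, 291 and 302 CPM in the A1 + OVA samples, with overlapping groups and -0.056 ± 0.043, adjusted p = 0.433 (edgeR). Psmc1 and Psmc5 had 0.090 and 0.081 with A1 and were not called in any comparison. The A1 call of Psmc2 was lost with upper-quartile factors (adjusted p = 0.0559, edgeR) and with library totals (log2 fold change 0.028, adjusted p = 0.498, edgeR), as was that of Psmc4. The call of Psmc4 with A1 was also lost without any one of control samples 2 and 4 and A1 samples 1 and 4 (adjusted p up to 0.0817, edgeR). The 3 calls between the treatments were each lost without A1 + OVA sample 3 and without some of the other treated samples, with adjusted p up to 0.0817 for Psmc2, 0.117 for Psmc3 and 0.105 for Psmc4 (edgeR), and without that sample none of the 39 genes was called lower, with 5 lower at an unadjusted p under 0.05.

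The 3 other subunits of the base moved little. Psmd2, the large scaffold on which ubiquitin shuttle factors dock, was at 407, 389.6, 412 and 403 CPM in the control samples, 406, 377, 405 and 406 CPM in the A1 samples and 403, 391, 400.4 and 395 CPM in the A1 + OVA samples. Its groups overlapped, and its log2 fold change was -0.015 ± 0.036, adjusted p = 0.733 with A1 and -0.020 ± 0.036, adjusted p = 0.65 with A1 and OVA (edgeR). Psmd4, a ubiquitin receptor, was at 99.2, 93.6, 97.6 and 93.0 CPM in the control samples, 102, 102, 101 and 104 CPM in the A1 samples and 98.6, 101, 95.3 and 96.6 CPM in the A1 + OVA samples. Its A1 samples stood just above the control samples, with 0.094 ± 0.037, adjusted p = 0.0337 (edgeR), and its value with A1 and OVA was 0.029 ± 0.037, adjusted p = 0.523. Psmd1, the other large scaffold, was at 341, 352, 338 and 335 CPM in the control samples, 360.1, 352, 375 and 365 CPM in the A1 samples and 354, 339, 334 and 332 CPM in the A1 + OVA samples, with 0.089 ± 0.036, adjusted p = 0.035 with A1 and -0.097 ± 0.036, adjusted p = 0.0788 for A1 + OVA against A1 (edgeR). The A1 calls of Psmd1 and Psmd4 were each lost without any one of 5 samples, which were A1 samples 1, 3 and 4 and control sample 4 for both, control sample 3 for Psmd1 and control sample 2 for Psmd4, with adjusted p up to 0.14 and 0.111 (edgeR).

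Each of the 8 lid genes rose with A1 (median log2 fold change 0.19), where 31.7% of all tested genes rose. With library totals 5 of 8 were called, without Psmd3 (adjusted p = 0.124), Psmd6 (0.412) and Psmd13 (0.105, edgeR), and with upper-quartile factors Psmd6 was not called (0.0754). Library totals called 2685 of the 11314 tested genes higher with A1, and upper-quartile factors 3225. With A1 and OVA 5 of 8 rose, with a median of 0.11, where 29.7% of all tested genes rose. With library totals 3 of 8 were called, namely Psmd7, Psmd8 and Psmd11, where 2618 of the 11314 tested genes were called higher. Psmd8 (chr7:29174188-29180701, minus strand, GRCm38), the lid subunit that joins last, was at 141, 125, 130.0 and 131 CPM in the control samples, 241, 247, 251 and 244 CPM in the A1 samples and 239.5, 240.4, 216 and 218 CPM in the A1 + OVA samples. The treated samples did not overlap with control, and the increase was 1.87-fold with A1 (log2 fold change 0.90 ± 0.044, adjusted p = 1.41e-13) and 1.73-fold with A1 and OVA (0.79 ± 0.044, adjusted p = 1.29e-12, edgeR). Among all 11314 tested genes, Psmd8 held rank 411 from the highest with A1 and rank 471 with A1 and OVA. The A1 + OVA samples of Psmd8 all lay below its A1 samples, and the difference of -0.11 ± 0.043, adjusted p = 0.108 did not pass the test (edgeR).

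Psmd11, a lid subunit that clamps the 19S particle to the core, was at 114, 115, 118 and 116 CPM in the control samples, 159, 150.5, 145 and 159.8 CPM in the A1 samples and 149.7, 152, 142 and 137 CPM in the A1 + OVA samples. Treated and control samples were fully apart, with 0.41 ± 0.041, adjusted p = 2.15e-08 with A1 and 0.33 ± 0.041, adjusted p = 6.51e-07 with A1 and OVA (edgeR). Psmd7, the partner of the deubiquitinase Psmd14, was at 229.7, 234, 222 and 216 CPM in the control samples, 278, 279, 280.3 and 270.4 CPM in the A1 samples and 269.5, 264, 263 and 269 CPM in the A1 + OVA samples. It too was fully apart from control in both treatments, with 0.30 ± 0.035, adjusted p = 2.08e-07 and 0.24 ± 0.035, adjusted p = 4.33e-06 (edgeR). Psmd14, the metalloprotease that cuts ubiquitin chains off the substrate, was at 225, 234, 213 and 209 CPM in the control samples, 244, 244, 273 and 258 CPM in the A1 samples and 251, 242, 224 and 233 CPM in the A1 + OVA samples. Its A1 samples lay above control and its A1 + OVA samples reached into the control range, with 0.21 ± 0.046, adjusted p = 0.00051 and 0.11 ± 0.046, adjusted p = 0.0509 (edgeR). Psmd11, Psmd7 and Psmd14 were chosen for full values after their values were seen. Psmd6 had the lowest increase of the lid with A1, at 155, 157, 152 and 144 CPM in the control samples, 171, 149.9, 166 and 176 CPM in the A1 samples and 165, 164, 155 and 164 CPM in the A1 + OVA samples, where A1 sample 2 lay within the control range and the log2 fold change was 0.12 ± 0.046, adjusted p = 0.0225 (edgeR). Psmd13 had the lowest log2 fold change of the lid with A1 and OVA, at 95.7, 92.9, 88.1 and 89.4 CPM in the control samples, 104, 98.9, 108 and 99.4 CPM in the A1 samples and 99.1, 98.7, 91.7 and 90.3 CPM in the A1 + OVA samples, with 0.16 ± 0.044, adjusted p = 0.00287 with A1 and 0.052 ± 0.044, adjusted p = 0.32 with A1 and OVA (edgeR). Psmd3 and Psmd12 stood at 0.16 and 0.16 with A1 and at 0.11 and 0.087 with A1 and OVA, called in both comparisons. With A1 and OVA those calls were marginal, since Psmd3 lost its call without any one of 8 samples and Psmd12 without any one of 9, with adjusted p up to 0.188 and 0.137 (edgeR), and 5 and 3 of the 21 alternative settings kept them. Psmd6 lost its A1 call without any one of control sample 4 and A1 samples 1, 3 and 4 (adjusted p up to 0.126, edgeR).

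**Figure D3:**
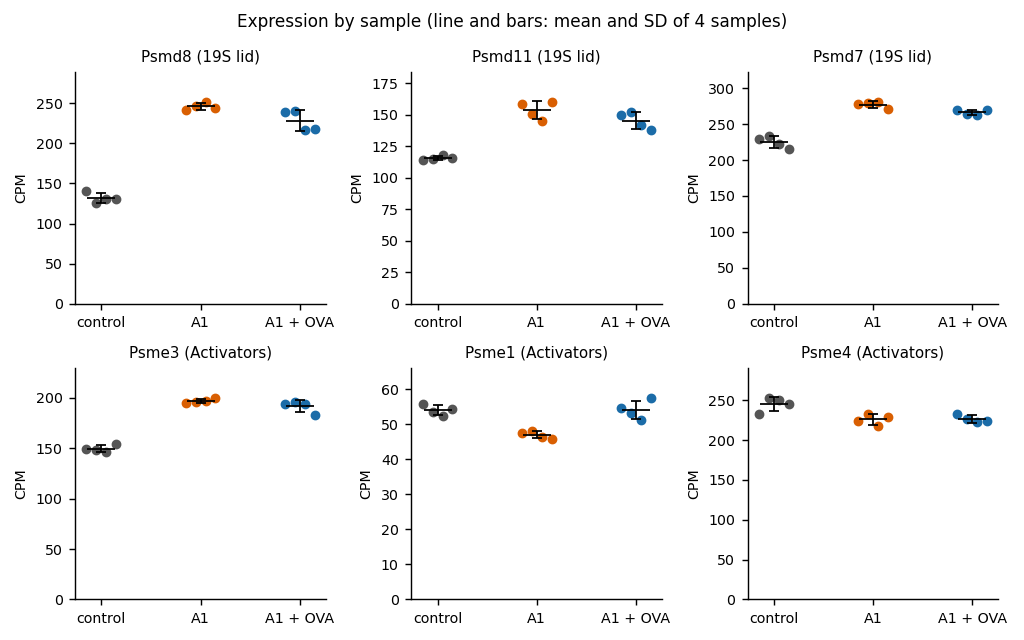
CPM in each of the 12 samples (points) with the mean and SD of each group of 4 (black) for the lid genes Psmd8, Psmd11 and Psmd7 and the activators Psme3, Psme1 and Psme4; vertical axes start at 0. For Psmd8, Psmd11, Psmd7 and Psme3 both treated groups lie above control, and for Psme1 the 4 A1 samples, from 45.9 to 48.2 CPM, lie below both other groups.

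Promoter sequences of these genes were also examined, and their part in the values above was not tested. RefSeq promoter windows of GRCm38.p6, from 250 bases before to 50 bases after the start, were given for 33 of the 39 genes (not for Psmb1, Psmb2, Psmb7, Psmc3, Psmd3 and Psmd7). They were searched on both strands for the core of the antioxidant response element, TGACNNNGC, to which NRF1 and NRF2 bind and through which NRF1 is known to restore proteasome genes when the proteasome is inhibited, for the CCAAT box and for the GC box, GGGCGG. The antioxidant response core was in 6 of the 33 genes, or 18.2%, against 14.0% of the 27025 genes of the table: Psmb5, Psmb6, Psmc6, Psmd9, Psmd12 and Psme4. The CCAAT box was in 36.4% of the proteasome genes against 41.1% of all genes, and the GC box in 22 of 33, or 66.7%, against 38.2%. In Psmd9 the antioxidant response core overlaps a GC box. The 27025 genes were not limited to those tested for expression. A match describes the letters only. Of each printed promoter, bases that lie in an annotated exon were left out, and capitals mark the 3 motifs. The promoter windows shown are those of Psmd8 and Psme1, the genes with the highest and lowest log2 fold change with A1, and of Psmb5 and Psmb6, the catalytic subunits with the antioxidant response core. The stretch of Psmd8 is chr7:29180702-29180923 on the minus strand, with a GC box, and that of Psme1 is chr14:55578249-55578359 on the plus strand, with none of the 3 motifs outside exons. The Psme1 stretch lies inside the annotated gene, which starts at 55578123, so it is not sequence upstream of the gene. In that window 139 of the 250 bases before the RefSeq start lay in annotated exons, and its GC box lay outside the printed stretch. The stretch of Psmb5 is chr14:54618023-54618245 on the minus strand, with the antioxidant response core, and that of Psmb6 is chr11:70525107-70525356 on the plus strand, with a GC box and with the antioxidant response core directly before the start.
Psmd8: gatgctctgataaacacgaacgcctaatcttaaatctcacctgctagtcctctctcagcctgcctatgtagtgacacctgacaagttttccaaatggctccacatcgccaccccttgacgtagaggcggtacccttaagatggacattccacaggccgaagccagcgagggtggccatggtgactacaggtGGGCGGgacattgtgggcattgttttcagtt
Psme1: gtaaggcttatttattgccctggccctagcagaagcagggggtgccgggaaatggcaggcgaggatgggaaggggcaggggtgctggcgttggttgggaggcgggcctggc
Psmb5: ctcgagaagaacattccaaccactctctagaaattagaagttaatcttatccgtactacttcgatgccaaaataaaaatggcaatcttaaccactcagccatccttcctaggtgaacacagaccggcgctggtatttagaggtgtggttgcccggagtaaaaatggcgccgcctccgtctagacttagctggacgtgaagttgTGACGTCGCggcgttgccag
Psmb6: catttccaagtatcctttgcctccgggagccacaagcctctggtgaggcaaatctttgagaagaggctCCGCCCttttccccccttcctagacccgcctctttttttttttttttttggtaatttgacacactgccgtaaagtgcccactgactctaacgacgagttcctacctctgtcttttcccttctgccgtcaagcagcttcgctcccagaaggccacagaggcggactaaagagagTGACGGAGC
The 2 catalytic genes with the antioxidant response core had log2 fold changes with A1 of 0.16 and 0.14, and Psmc6, Psmd9, Psmd12 and Psme4 of 0.074, 0.12, 0.16 and -0.12, of which Psmb6 and Psmd12 rose and Psme4 fell.

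The chaperones that build the 19S base did not move in one direction. Psmd5 was at 95.2, 94.5, 96.3 and 99.5 CPM in the control samples, 112, 103, 119 and 113 CPM in the A1 samples and 117, 117, 110.4 and 114 CPM in the A1 + OVA samples. Every treated sample lay above control, with 0.21 ± 0.042, adjusted p = 0.000163 with A1 and 0.25 ± 0.042, adjusted p = 2.62e-05 with A1 and OVA (edgeR). Psmd10, known as gankyrin, was at 48.9, 49.6, 47.6 and 46.1 CPM in the control samples, 45.0, 43.2, 46.9 and 40.4 CPM in the A1 samples and 45.6, 46.3, 39.7 and 39.9 CPM in the A1 + OVA samples. The treated samples lay low and overlapped with control at their upper end, with -0.13 ± 0.059, adjusted p = 0.059 with A1 and -0.17 ± 0.058, adjusted p = 0.0193 with A1 and OVA (edgeR). That decrease with A1 and OVA was not called without control sample 2, A1 + OVA sample 3 or A1 + OVA sample 4 (adjusted p up to 0.0787, edgeR). Psmd9 was at 36.4, 28.7, 29.6 and 32.0 CPM in the control samples, 36.3, 34.3, 34.6 and 32.1 CPM in the A1 samples and 33.8, 30.4, 34.4 and 30.5 CPM in the A1 + OVA samples, with overlapping groups and 0.12 ± 0.070, adjusted p = 0.154 with A1 (edgeR). Pomp, the chaperone that drives the maturation of the 20S core, was at 125, 110.2, 109.7 and 106 CPM in the control samples, 134, 125, 136 and 129.6 CPM in the A1 samples and 128, 127, 118 and 132 CPM in the A1 + OVA samples. It rose in both treatments, with 0.22 ± 0.049, adjusted p = 0.00055 with A1, where control sample 1 lay just below the lowest A1 sample, and 0.16 ± 0.049, adjusted p = 0.00698 with A1 and OVA (edgeR).

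Of the activators that can cap the core in place of the 19S particle, Psme3 rose, Psme1 and Psme4 fell with A1, and Psme2 was not called. Psme3, the subunit of the nuclear PA28-gamma activator, was at 149, 149, 146 and 154 CPM in the control samples, 195, 196, 197 and 199.8 CPM in the A1 samples and 194, 196, 194 and 183 CPM in the A1 + OVA samples. Its treated samples stood fully above control, with 0.40 ± 0.035, adjusted p = 2.84e-09 with A1 and 0.36 ± 0.035, adjusted p = 1.6e-08 with A1 and OVA (edgeR). Psme4, the nuclear activator PA200, was at 233, 253, 250.0 and 246 CPM in the control samples, 224, 233, 218 and 229 CPM in the A1 samples and 233, 227, 222 and 223 CPM in the A1 + OVA samples. One control sample lay at the level of the treated samples, and the log2 fold change was -0.12 ± 0.037, adjusted p = 0.00839 with A1 and -0.12 ± 0.037, adjusted p = 0.0105 with A1 and OVA (edgeR). Psme1 encodes the alpha subunit of PA28, an interferon-induced activator linked to the supply of MHC class I peptides. The gene (chr14:55578123-55581529, plus strand, GRCm38) was at 55.8, 53.6, 52.3 and 54.3 CPM in the control samples, 47.4, 48.2, 46.5 and 45.9 CPM in the A1 samples and 54.6, 53.3, 51.3 and 57.5 CPM in the A1 + OVA samples. The A1 samples lay below every control sample and every A1 + OVA sample, while the A1 + OVA samples covered the control range. Its log2 fold change was -0.20 ± 0.047, adjusted p = 0.000789 with A1, 0.0044 ± 0.045, adjusted p = 0.942 with A1 and OVA, and 0.21 ± 0.047, adjusted p = 0.00591 between the treatments (edgeR), which made it the 1 proteasome gene higher with OVA than without. Psme2, the beta subunit of PA28, which lies next to Psme1 on chromosome 14, was at 52.0, 42.8, 44.8 and 44.4 CPM in the control samples, 45.3, 38.9, 43.5 and 41.5 CPM in the A1 samples and 45.5, 48.9, 42.0 and 45.8 CPM in the A1 + OVA samples. Its groups overlapped, with -0.12 ± 0.065, adjusted p = 0.111 with A1 and 0.11 ± 0.065, adjusted p = 0.305 between the treatments (edgeR). The near copy Psme2b had 12 to 26 counts a sample, and reads that Psme2 and Psme2b share make their counts uncertain. The calls of Psme1, Psme3 and Psme4 held under all 21 alternative settings.

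Expression was also added up by role. Summed CPM of the 8 lid genes was 121.1% to 126.6% of the control mean in the A1 samples and 114.2% to 121.0% in the A1 + OVA samples, where the control samples ran from 97.4% to 102.2%. Without Psmd8, whose share was examined after its values were seen, the other 7 lid genes stood at 113.1% to 118.9% with A1 and 108.1% to 113.7% with A1 and OVA, still above their control range of 97.2% to 102.0%. The ATPases reached 104.2% to 108.8% with A1, above their control range of 97.1% to 103.1%, and with A1 and OVA they stood at 95.5% to 102.5%, within it or just below. The alpha rings had 109.2% to 113.8% with A1 and 98.9% to 110.7% with A1 and OVA (control, 96.3% to 105.5%), and the beta rings 103.4% to 109.0% and 100.2% to 103.5% (control, 94.9% to 110.0%). The 4 activators together stood at 101.9% to 104.3% with A1 and 102.9% to 106.6% with A1 and OVA, above their control range of 98.9% to 100.8%, although Psme1 and Psme4 fell with A1. The 3 other base subunits ran from 98.9% to 104.9% and from 97.98% to 101.9% (control, 98.9% to 100.9%), and the 3 assembly chaperones from 102.8% to 113.8% and from 104.6% to 111.6% (control, 98.1% to 102.5%). As a share of the summed CPM of the 39 genes, the lid went from between 20.8% and 21.4% in control to between 23.7% and 24.02% with A1 and between 23.3% and 23.8% with A1 and OVA, whereas the ATPases went from between 20.6% and 21.1% to between 19.8% and 20.01% and between 19.4% and 19.5%. The 20S core had a share of 29.3% to 31.2% over the 12 samples. The percentages of the control mean move with the scaling, which was not varied for them. A share within one sample does not depend on the scaling, but a higher share of the lid lowers that of every other role.

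**Figure D4:**
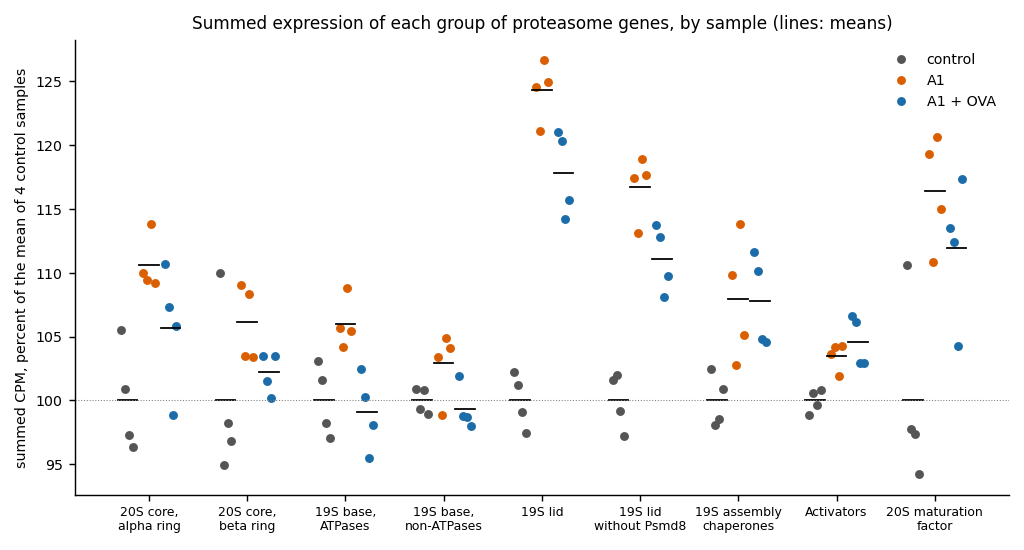
Summed CPM of each group of proteasome genes in each of the 12 samples (points), as percent of the mean of the 4 control samples, with group means as black lines; the vertical axis does not start at 0. The lid stands apart from control in both treatments, at 121.1% to 126.6% with A1, also without Psmd8 at 113.1% to 118.9%, while the beta rings, with one control sample at 110.0%, overlap.

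The wider pathway was followed through 36 tested genes that act with the proteasome. With A1, 15 rose and 6 fell (all tested genes, 31.7% and 31.1%), and with A1 and OVA 14 rose and 5 fell (29.7% and 27.9%). Between the treatments 2 were lower with OVA (6.81%). Among further 19S subunits, the ubiquitin receptor Adrm1 was at 41.8, 37.2, 41.1 and 42.4 CPM in the control samples, 48.3, 53.7, 48.4 and 48.4 CPM in the A1 samples and 46.1, 47.3, 51.6 and 49.5 CPM in the A1 + OVA samples. Its treated samples stood fully above control, with 0.29 ± 0.055, adjusted p = 0.000104 with A1 (edgeR), and the small lid subunit Sem1 had 0.058 ± 0.052, adjusted p = 0.339. Of the core assembly factors Psmg1 to Psmg4, Psmg2 and Psmg4 rose in both treatments, at 0.20 and 0.37 with A1 and 0.33 and 0.49 with A1 and OVA. The deubiquitinases Usp14 and Uchl5, which edit ubiquitin chains on the particle, rose as well, with 0.23 and 0.27 with A1, and the proteasome adaptor Ecpas fell with -0.21 ± 0.042, adjusted p = 0.000247 (edgeR).

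NRF1, encoded by Nfe2l1, is the transcription factor known to raise proteasome genes when proteasome activity falls short, after it is stripped of sugars by Ngly1 and cut by Ddi2. Nfe2l1 itself fell with A1, at 300.2, 284, 288 and 287 CPM in the control samples, 263, 256, 266 and 268 CPM in the A1 samples and 284, 291, 269 and 277 CPM in the A1 + OVA samples. Its A1 samples lay below the control samples, with -0.14 ± 0.036, adjusted p = 0.00224 with A1 and -0.048 ± 0.036, adjusted p = 0.266 with A1 and OVA (edgeR). Ngly1 was at 59.6, 60.4, 58.5 and 56.5 CPM in the control samples, 48.9, 40.9, 48.7 and 46.3 CPM in the A1 samples and 46.9, 46.8, 46.0 and 43.6 CPM in the A1 + OVA samples. Both treated groups were fully below control, with -0.35 ± 0.053, adjusted p = 8.58e-06 and -0.36 ± 0.053, adjusted p = 5.33e-06 (edgeR). Ddi2 rose slightly, with 0.14 ± 0.051, adjusted p = 0.0192 and 0.15 ± 0.050, adjusted p = 0.0135 (edgeR). The related factor Nfe2l2 (NRF2) was at 140.5, 142, 144 and 142 CPM in the control samples, 190.5, 189, 182 and 188 CPM in the A1 samples and 188, 183, 176 and 183 CPM in the A1 + OVA samples, fully above control in both treatments, with 0.40 ± 0.034, adjusted p = 1.4e-09 and 0.36 ± 0.034, adjusted p = 8.15e-09 (edgeR).

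The inducible core subunits, which replace the catalytic beta subunits in the immunoproteasome, were scarce. Psmb8 was at 0.866, 0.768, 0.557 and 0.627 CPM in the control samples, 0.940, 0.382, 0.458 and 0.363 CPM in the A1 samples and 0.217, 0.506, 0.726 and 0.862 CPM in the A1 + OVA samples, with overlapping groups and -0.38 ± 0.37, adjusted p = 0.384 with A1 (edgeR). Psmb9 was at 1.11, 0.768, 0.866 and 0.877 CPM in the control samples, 0.361, 0.153, 0.382 and 0 CPM in the A1 samples and 0.435, 0.380, 0.396 and 0.801 CPM in the A1 + OVA samples. It fell with A1, -1.98 ± 0.44, adjusted p = 0.000522, and with A1 and OVA, -0.82 ± 0.35, adjusted p = 0.0491 (edgeR), at no more than 18 counts in any sample, so that the size of the change is poorly fixed. Psmb10 was at 7.92, 6.74, 9.15 and 7.27 CPM in the control samples, 8.46, 7.71, 8.55 and 7.91 CPM in the A1 samples and 8.11, 8.48, 9.30 and 8.81 CPM in the A1 + OVA samples and was not called in any comparison. Psma8 had no count in any sample and Psmb11 at most 2, and neither was tested.

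Among the p97 and ubiquitin shuttle genes, Zfand2a, a stress-induced factor that binds the 19S particle, was at 32.9, 29.3, 29.9 and 33.9 CPM in the control samples, 46.8, 51.0, 48.3 and 53.6 CPM in the A1 samples and 46.6, 49.6, 48.7 and 45.3 CPM in the A1 + OVA samples. Both treated groups lay fully above control, with 0.66 ± 0.058, adjusted p = 2.35e-09 with A1 and 0.59 ± 0.058, adjusted p = 1.44e-08 with A1 and OVA (edgeR). Ubqln4 and Rad23b rose, with 0.47 and 0.25 with A1, while Ubqln2 fell, with -0.16, and Vcp, which encodes p97 itself, had -0.027 ± 0.038, adjusted p = 0.546 (edgeR). Of the ubiquitin genes, Ubb was at 112, 97.1, 98.2 and 99.7 CPM in the control samples, 128, 117, 121 and 121 CPM in the A1 samples and 102, 101, 102 and 102 CPM in the A1 + OVA samples. It was higher with A1 alone than in either other group, with 0.26 ± 0.044, adjusted p = 3.72e-05 against control and -0.26 ± 0.045, adjusted p = 0.000602 for A1 + OVA against A1 (edgeR). Rps27a rose with 0.20. It encodes ubiquitin fused to a ribosomal protein and is known for near copies in the genome, so that its count is uncertain.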

How the data were processed

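RNA-seq of 12 samples, 4 per group, was analysed from the deposited table of raw counts per gene. The authors aligned strand-specific paired-end reads to GRCm38 with STAR (version 2.7) and counted them with featureCounts (version 2.0, strand-specific). Samples were assigned to groups by their titles. Symbols, biotypes and exon lengths came from GENCODE M21, which holds 99.5% of the 55487 identifiers. Protein-coding genes were filtered with edgeR's filterByExpr, and scaled by TMM factors. The quasi-likelihood test of edgeR (version 4.0.16, under R 4.3.3) was run as 1 fit of the 3 groups. P-values were adjusted by Benjamini-Hochberg over 11314 genes, with a threshold of 0.05. CPM values use the TMM factors, and SE is the log2 fold change over the root of F. The study's own test, DESeq2 (1.42.0), was one of 21 alternatives. A self-check on simulated counts was passed, in which well-expressed genes were changed by a log2 fold change of 0.5 or 1 in both directions. Changes below 0.5, as for most of the 39 genes, were not simulated.

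At 13702348 to 16881995 counts a sample, each of the 39 genes was well covered, and 4 samples a group limit the precision. The members and lists were chosen with earlier results of these data known. For each role and comparison the lowest and highest gene, and any gene past 0.5 or against most of its role, were named with all values. Of 39 further pathway genes 38 were matched and 36 tested, and those past 0.5 or of the NRF1 route or inducible core were named, with others added after their values were seen. Some pathway genes are counted but not reported here by name. Promoter sequences are RefSeq's (GRCm38.p6).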

Additional observations from a re-analysis of the deposited data

Results flagged for a closer look

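In 13 of 225 groups of 4 samples, 1 sample stood apart from the other 3 by Dixon's criterion, where chance gives 11.2, so the number of such groups is near that expected. Among the proteasome subunits, Psma1 was at 152 CPM in A1 sample 4 (other A1 samples, 158 to 159 CPM), Psma4 at 206 CPM in A1 sample 3 (192 to 194 CPM), Psmc5 at 144 CPM in control sample 1 (134 to 135 CPM), Psmd2 at 377 CPM in A1 sample 2 (405 to 406 CPM) and Psmd6 at 155 CPM in A1 + OVA sample 3 (164 to 165 CPM). Among the other genes of the pathway, A1 sample 2 stood apart for Adrm1 at 53.7 CPM and for Ube3c at 149.8 CPM, and A1 sample 1 for Psmb8 at 0.940 CPM and Nploc4 at 109.8 CPM. A1 + OVA sample 2 stood apart for Psmg1 at 25.4 CPM and Ubb at 101 CPM, A1 + OVA sample 4 for Psmb9 at 0.801 CPM and control sample 2 for Uchl5 at 54.1 CPM.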

How the results depend on the processing

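Of the 44 calls among the 39 genes, none changed sign in any of the 21 alternatives. With A1, 10 of 25 increases and both decreases were called in all of them (Psma6, Psma7, Psmd5, Psmd7, Psmd8, Psmd11, Psmd12, Psmd14, Psme3 and Pomp, and Psme1 and Psme4). With A1 and OVA, 6 of 11 increases (Psma7, Psmd5, Psmd7, Psmd8, Psmd11 and Psme3) and 1 of 2 decreases (Psme4) were. Between the treatments the 1 increase and none of the 3 decreases were. The A1 + OVA calls of Psma6, Psmb5 and Pomp were lost with library totals (adjusted p = 0.0985, 0.0555 and 0.101, edgeR). With library totals only, 10 genes were higher and 5 lower with A1 (median 0.045), 6 higher and 4 lower with A1 and OVA (median -0.015), and 1 was lower with OVA than with A1 alone. Of all 11314 tested genes, library totals called 2685 higher and 4491 lower with A1 (median -0.082). With A1 and OVA they called 2618 higher and 4097 lower (median -0.062), and 616 were lower with OVA than with A1 alone. Upper-quartile factors gave 14 higher with A1 (all tested genes, 3225). At a threshold of 1, 0 genes remained past it in either comparison with control, against 1 at 0.5. Leaving out 1 sample at a time, 16 (without A1 sample 1) to 30 (without control sample 1) genes were higher with A1, 1 (without control sample 2, A1 + OVA sample 3 or 4) to 2 were lower with A1 and OVA, and 0 (without A1 + OVA sample 3) to 3 were lower with OVA than with A1 alone.

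Of 73 values that were not called, 26 changed sign in some alternative, all between -0.10 and 0.10. Of those reported, library totals gave, with A1, -0.041 for Psma4, -0.069 for Psmb1, -0.017 for Psmc3 and -0.0064 for Psmc6, and with A1 and OVA -0.0068 for Psma3, -0.023 for Psmb6, -0.048 for Psmc6, -0.037 for Psmd4, -0.013 for Psmd13 and -0.061 for Psme1. Upper-quartile factors gave -0.018 for Psmb1 with A1, and -0.0046 for Psmc6 and -0.018 for Psme1 with A1 and OVA. The latter was also -0.0022 with relative log expression factors, -0.00097 without a filter, -0.0075 with all genes of the file, -0.0021 with DESeq2 and -0.0027 with only the compared groups. Without 1 sample, Psmb1 ran from -0.015 to 0.065 and Psmd2 from -0.031 to 0.012 with A1, and Psma2 from -0.020 to 0.026, Psmc6 from -0.015 to 0.049 and Psme1 from -0.026 to 0.031 with A1 and OVA. The causes were not tested beyond the scaling itself.

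With the replicate number as a block, 26 genes were higher and 3 lower with A1, 10 and 2 with A1 and OVA, and 1 and 3 between the treatments. The number is not known to mark a shared culture. To examine it, the deviations of log CPM from the group mean were correlated between samples of different groups. These deviations correlated at a mean of 0.021 for same-numbered samples (12 pairs, -0.13 to 0.16), against -0.0070 for other pairs. Of 12 samples, 4 correlated best with their own number. Depth did not limit the 39 genes, each of which had at least 368 counts in every sample.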
